A study of Mus musculus with 8 samples.

Results

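Genes of the Ly6/uPAR family were examined in RNA-seq data from whole testes of Iqch mutant and wild-type mice. Of 10 genes listed as members, 8 are among the 17127 genes of the expression table: Ly6d, Ly6a, Ly6c1, Ly6e, Ly6k, Tex101, Lypd4 and Spaca4. Lypd1 and Lypd6 were not analysed here. The members were chosen by name, except that Ly6d was chosen for its large rise in these same libraries, so its values are given as a description with no test. Ly6d, Ly6a, Ly6c1 and Ly6e are known from lymphoid, endothelial and other somatic cells and are called somatic members, while Ly6k, Tex101, Lypd4 and Spaca4 are known from male germ cells and are called germ-cell members.

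Ly6/uPAR proteins share a small fold held together by disulphide bonds between cysteines, from which loops project like fingers. Most are fixed to the outer face of the cell membrane by a glycosylphosphatidylinositol (GPI) anchor, and some are secreted. On leukocytes, Ly6 antigens are used as markers of cell type, and several of their genes respond to interferon. On sperm, other members of the family are needed for fertility, among them proteins that act in the passage of sperm into the oviduct and in binding to the egg coat.

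The 7 libraries compared were from testes of 4-month-old males, 1 library per mouse, with 4 wild-type mice (1 to 4) and 3 homozygous Iqch mutants (1, 2 and 4). The mutants, labelled Iqch-/-, descend from B6CBAF1 zygotes injected with Cas9 mRNA and guide RNAs. The study kept 2 edited lines with frameshift deletions and used 1 name, Iqch mutant, for both. It states that its phenotyping refers to the line mu7, and its RNA-seq coverage plot of Iqch names mu7. The labels do not say which line each mouse carried. Mutant 3 is not analysed here, and 1 mutant was set aside by the study because it stood apart. Values are CPM, a gene's share of the reads of its library scaled to 1000000, and 32064384 to 37551057 reads stood behind each library. Iqch itself was at 217, 206, 216 and 193 CPM in wild types 1 to 4 and at 67.7, 64.8 and 69.2 CPM in mutants 1, 2 and 4, a log2 fold change of -1.63 (SE 0.05, adjusted p = 1.9e-10, limma). Its transcript was therefore lower in the mutants but still present. Fold changes are those of mutants over wild types on the scale of log2(CPM + 0.1), with Benjamini-Hochberg adjustment over 17126 tested genes, and a gene was called at an adjusted p below 0.01. The median tested gene had a log2 fold change of 0.121, and of -0.013 after division by median-of-ratios size factors, so small changes are also given relative to that shift.

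The shared ancestry of the members can be read in a short stretch near the end of their coding sequence, where 2 neighbouring cysteines are followed after 4 residues by a further cysteine and an asparagine. The stretch is shown because it occurs in members that moved in opposite directions. Of the 8 members, 6 have it in this exact spacing, and the other two, Tex101 and Lypd4, do not. In the 6 lines that follow, each sequence is the coding strand of GRCm39 from 5′ to 3′, and capitals mark the codons of the 3 cysteines and the asparagine.
Ly6d: TGCTGCcagactgacctaTGCAAC
Ly6e: TGCTGCcaaagctccttcTGCAAC
Ly6a: TGTTGCcaggaagacctcTGCAAT
Ly6c1: TGTTGCagcgaagacctcTGCAAT
Ly6k: TGCTGTcaatgggactcaTGTAAT
Spaca4: TGCTGTtctggccaccttTGCAAT
These stretches lie at chr15:74634310-74634333 (minus strand, Ly6d), chr15:74830443-74830466 (plus, Ly6e), chr15:74867201-74867224 (minus, Ly6a), chr15:74917341-74917364 (minus, Ly6c1), chr15:74668954-74668977 (minus, Ly6k) and chr7:45374710-45374733 (minus, Spaca4), each in the last exon of its transcript. Spaca4 is a gene of 1 exon, whereas Ly6d, Ly6a and Ly6c1 have 3 exons and Ly6e and Ly6k have 4. Tex101 and Lypd4 encode longer chains, of 250 and 246 residues with 15 cysteines each, against 127 residues and 11 cysteines for both Ly6d and Spaca4.

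Ly6d (ENSMUSG00000034634) encodes a surface antigen used to mark early B-lineage progenitors and also present on some epithelia. In wild types 1 to 4 it was at 0.150, 0.466, 0.122 and 0.107 CPM, which are 5, 16, 4 and 4 reads. In mutants 1, 2 and 4 it was at 19.1, 24.0 and 18.0 CPM, which are 666, 770 and 585 reads. All 3 mutants were thus far above every wild type, the lowest mutant being 38.6 times the highest wild type. The mean was 20.4 ± 3.21 CPM in mutants (SD, n = 3) and 0.211 ± 0.171 CPM in wild types (SD, n = 4), a ratio of 96.6. The log2 fold change was 6.16 (SE 0.31), and the few wild-type reads set how precisely it is known. A pseudocount of 1 gave 4.14 and one of 0.01 gave 6.77. Without wild type 2, the library with the most wild-type reads of Ly6d, it was 6.49.

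The other 3 somatic members all rose, each with no overlap between the groups. Ly6e (ENSMUSG00000022587), an interferon-inducible antigen of thymocytes and many other cells, was at 19.1, 14.1, 17.3 and 20.3 CPM in wild types 1 to 4. In mutants 1, 2 and 4 Ly6e was at 189, 219.9 and 163 CPM. Its lowest mutant was 8.02 times its highest wild type, and the means were 17.7 ± 2.67 CPM (SD, n = 4) and 190.4 ± 28.7 CPM (SD, n = 3), a ratio of 10.8. The log2 fold change of Ly6e was 3.42 (SE 0.12, adjusted p = 5.1e-10, limma). Ly6e had far more wild-type reads than Ly6d, 485 to 761 in a library, so its fold change rests on well-counted values in both groups.

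Ly6a (ENSMUSG00000075602) encodes stem cell antigen 1, a marker of haematopoietic stem cells that is also present on endothelium. It was at 2.21, 2.94, 1.58 and 2.77 CPM in wild types 1 to 4 and at 8.59, 11.2 and 8.08 CPM in mutants 1, 2 and 4, a ratio of means of 3.91 (log2 fold change 1.94, SE 0.20, adjusted p = 2.8e-06, limma). Ly6c1 (ENSMUSG00000079018), which encodes a Ly6C antigen of endothelium and leukocytes, was at 2.00, 2.71, 1.43 and 2.77 CPM in wild types and at 4.14, 5.05 and 4.82 CPM in mutants. Its ratio of means was 2.10 and its log2 fold change 1.07 (SE 0.21, adjusted p = 6.2e-04, limma). In both genes wild type 3 was the lowest library and mutant 2 the highest. Ly6c1 has a close relative, Ly6c2, that was not analysed here, so reads of Ly6c1 may be shared with it.

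Among the germ-cell members, 3 fell slightly and 1 was not called. Lypd4 (ENSMUSG00000062732), a sperm protein needed for male fertility, was at 434, 425, 413 and 418 CPM in wild types 1 to 4 and at 383, 354 and 368 CPM in mutants 1, 2 and 4. Every mutant was below every wild type, and the log2 fold change was -0.20 (SE 0.04, adjusted p = 7.5e-04, limma), or -0.32 relative to the median gene. Ly6k (ENSMUSG00000044678), which associates with TEX101 on germ cells, was at 66.1, 74.2, 72.5 and 69.0 CPM in wild types and at 58.4, 59.9 and 59.8 CPM in mutants. The groups did not overlap here either, and the log2 fold change of Ly6k was -0.24 (SE 0.05, adjusted p = 0.00111, limma), or -0.37 relative to the median gene.

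Spaca4 (ENSMUSG00000070563), a sperm surface protein that acts at the egg coat, was at 124, 129, 110.1 and 124 CPM in wild types 1 to 4 and at 110.0, 99.4 and 106 CPM in mutants 1, 2 and 4. Its highest mutant and its lowest wild type nearly met, at 0.999 of one another. Its log2 fold change was -0.21 (SE 0.06, adjusted p = 0.00685, limma), or -0.33 relative to the median gene. This call was lost without wild type 1 (adjusted p = 0.0187), wild type 2 (0.0245), wild type 4 (0.0144), mutant 2 (0.0386) or mutant 4 (0.0185), all by limma. Tex101 (ENSMUSG00000062773), a germ-cell surface protein that takes part in the maturation of ADAM3, was at 183, 162, 173 and 162 CPM in wild types and at 178, 183 and 184 CPM in mutants. The groups overlapped, and the log2 fold change of Tex101 was 0.09 (SE 0.05, adjusted p = 0.107, limma), or -0.04 with size factors. At this precision no change of Tex101 was detectable.

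Leaving out Ly6d, 3 of the 7 members were called higher and 3 lower. Over all tested genes, 36.3% were called higher and 14.2% lower. The same 3 and 3 members did not overlap between the groups, against 42.8% of all tested genes that did not overlap with the mutants higher and 19.5% with the mutants lower. The direction followed the division into somatic and germ-cell members, which was made from what the genes are known for but with their values in these libraries known. The median log2 fold change was 1.94 over the 3 somatic members other than Ly6d and -0.20 over the 4 germ-cell members, beside 0.121 over all tested genes. A gene was tested where it reached 2.2 CPM in 2 libraries of either group, and these 7 members reached it in both groups, whereas Ly6d did so only in mutants. Of the 16147 genes that reached it in both groups, 35.1% were called higher and 13.9% lower. Because whole testes were sequenced, fewer cells of a type and less RNA per cell cannot be told apart in any of these values.

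**Figure D1:**
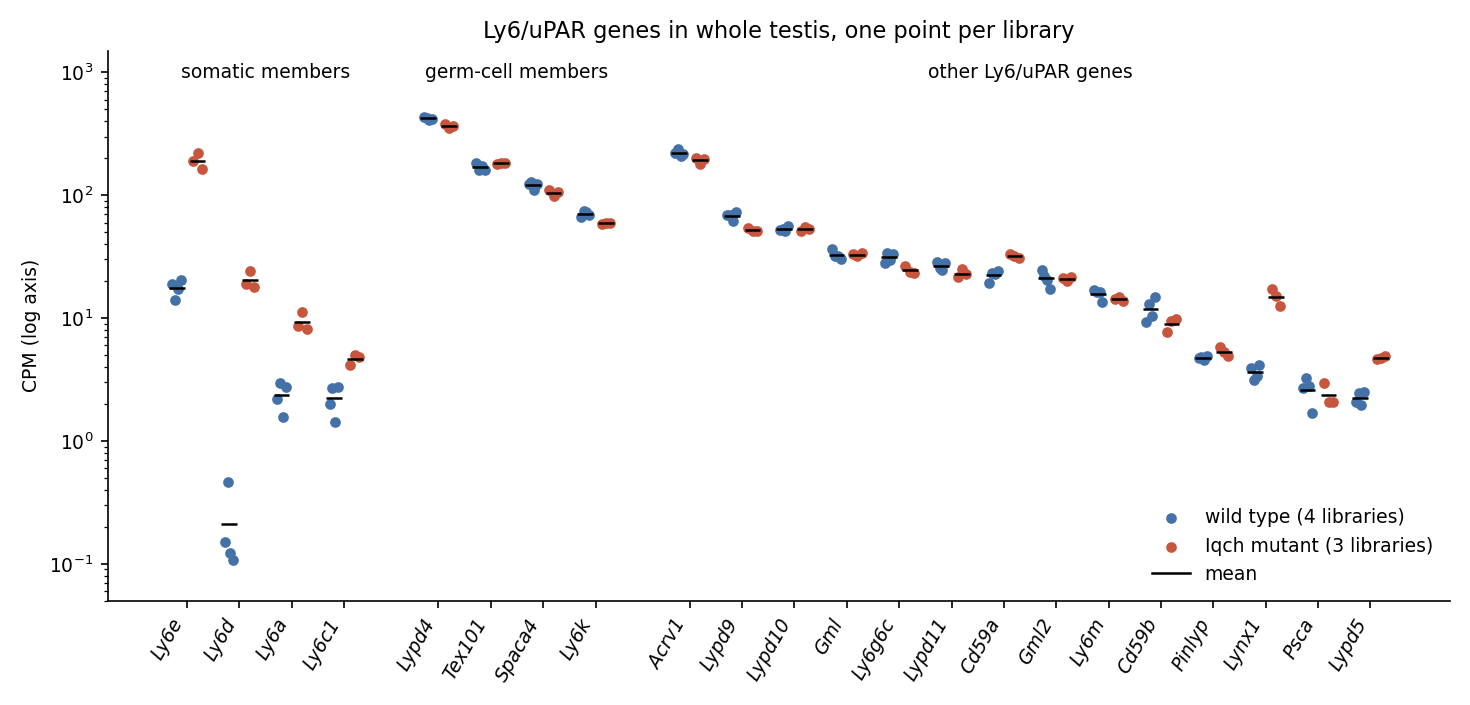
CPM on a log axis for each of 22 Ly6/uPAR genes, 1 point per library, wild types in blue (n = 4) and Iqch mutants in red (n = 3), with the mean as a black bar. The red points of the 4 somatic members stand clear above the blue ones, from 2.77 against 4.14 CPM in Ly6c1 to 0.466 against 18.0 CPM in Ly6d at the nearest libraries, whereas the germ-cell members lie close together in both groups.

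Levels of different genes can be compared only per length, here as CPM per kilobase of 1 annotated transcript for each gene, so they depend on that choice of transcript. In wild types the germ-cell members were the abundant ones, with mean levels of 313 CPM per kilobase for Lypd4, 172 for Spaca4, 157 for Tex101 and 89.0 for Ly6k. The somatic members followed at 7.57 for Ly6e, 2.05 for Ly6c1, 0.641 for Ly6a and 0.242 for Ly6d. Ly6c1 and Ly6a kept apart in this order, with 1.31 to 2.55 and 0.427 to 0.794 CPM per kilobase in single wild types, as did Ly6e and Ly6c1. The ranges of Ly6a and Ly6d overlapped, since Ly6d reached 0.534 in wild type 2. Spaca4 and Tex101 overlapped too, at 156 to 182 and 149 to 168.

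In mutants the order of the germ-cell members shifted little and the somatic members moved up. Lypd4 had a mean of 273 CPM per kilobase, Tex101 167, Spaca4 149, Ly6e 81.4, Ly6d 23.4, Ly6c1 4.29 and Ly6a 2.51. Ly6k, at 73.8 to 75.7 in single mutants, fell within the range of Ly6e, 69.5 to 94.0. Ly6d passed from the lowest of the 8 members to a level above Ly6a and Ly6c1, at 20.6 to 27.5 CPM per kilobase in single mutants. Of the summed CPM per kilobase of the 8 members, the somatic members held 1.42%, 1.31%, 1.29% and 1.65% in wild types 1 to 4 and 13.8%, 16.7% and 12.7% in mutants 1, 2 and 4. Most of that gain was Ly6e, with Ly6d next. In CPM, the somatic members summed to 20.2 to 25.9 in wild types and 193 to 260.2 in mutants, and the germ-cell members to 769 to 807 and 695 to 729.

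Of 51 further genes of the family, 14 were tested, of which 3 were called higher, 3 lower and 8 neither. Over all tested genes, 36.3% were called higher and 14.2% lower, so these counts are not read as a trait of the family. Lynx1 (ENSMUSG00000022594), a GPI-anchored modulator of nicotinic acetylcholine receptors, was at 3.95, 3.15, 3.38 and 4.15 CPM in wild types 1 to 4 and at 17.1, 15.1 and 12.6 CPM in mutants 1, 2 and 4 (log2 fold change 2.00, SE 0.13, adjusted p = 7.0e-08, limma). Lypd5 rose from 1.95 to 2.50 CPM in wild types to 4.63 to 4.95 CPM in mutants (log2 fold change 1.06, SE 0.14, adjusted p = 3.0e-05, limma). Cd59a, which shields cells from the complement attack complex, rose from 19.2 to 24.0 CPM to 30.7 to 33.4 CPM (log2 fold change 0.52, SE 0.08, adjusted p = 9.0e-05, limma). In all 3 the groups did not overlap, which held with the mutants higher for 42.8% of all tested genes.

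The 3 that fell were less changed. Lypd9, a gene with testis expression, went from 61.8 to 73.2 CPM in wild types to 51.1 to 53.9 CPM in mutants (log2 fold change -0.38, SE 0.06, adjusted p = 1.0e-04, limma). Ly6g6c, from the major histocompatibility complex region of chromosome 17, fell from 28.1 to 34.1 CPM to 23.2 to 26.6 CPM (log2 fold change -0.35, SE 0.08, adjusted p = 0.0021, limma). Acrv1, which encodes a protein of the acrosomal matrix, fell from 210.1 to 237 CPM to 179.7 to 199.9 CPM (log2 fold change -0.20, SE 0.05, adjusted p = 0.00545, limma). By limma, Ly6g6c was not called without mutant 2 (adjusted p = 0.0105) or mutant 4 (0.0122), nor was Acrv1 without wild type 1 (0.0125), wild type 2 (0.0191) or mutant 2 (0.0335), so that without mutant 2 only 1 of these further genes was called lower.

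The 8 that were not called had log2 fold changes between -0.39 and 0.16. They were Cd59b at -0.39, Lypd11 at -0.21, Ly6m at -0.13, Psca, the prostate stem cell antigen, at -0.12, Gml2 at -0.01, Lypd10 at 0.00, Gml at 0.01 and Pinlyp, a phospholipase inhibitor, at 0.16. With size factors, Cd59b (-0.53, adjusted p = 0.00641, limma) and Lypd11 (-0.34, adjusted p = 0.00117, limma) were also called, giving 3 higher and 5 lower. That scaling also evened the calls over the whole table, to 27.0% higher and 25.1% lower. Cd59b was also called without wild type 1 (-0.50, adjusted p = 0.00756, limma). Of the 14, Psca reached the minimum only in wild types and the other 13 in both groups.

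**Figure D2:**
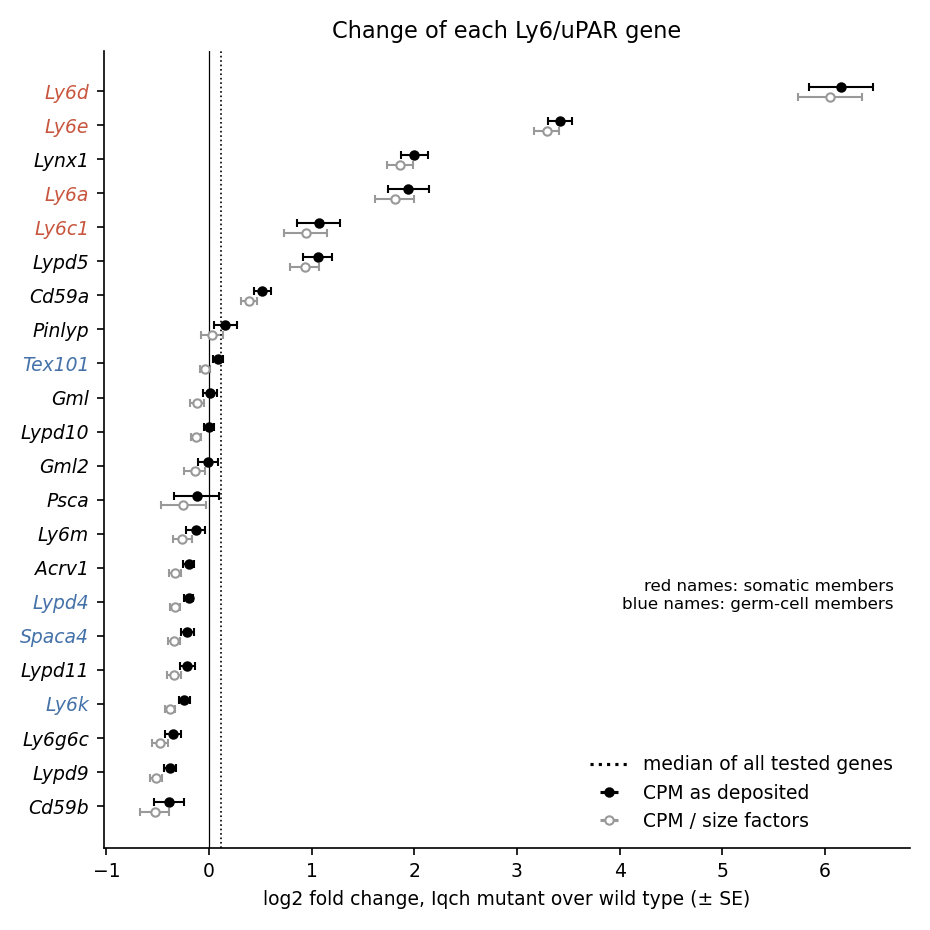
Log2 fold change of each of 22 Ly6/uPAR genes (mutants over wild types, bars ± SE), black for CPM as deposited and grey for CPM divided by size factors, with a dotted line at the median of all tested genes, 0.121. Of the genes, 7 lie well to the right, from Cd59a at 0.52 to Ly6d at 6.16, and the others lie between -0.39 and 0.16, with size factors moving each a little to the left.

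Of the 22 genes, 10 lie on chromosome 15 and 7 on chromosome 7. The chromosome 15 genes stand in 1 stretch of 334 kb of GRCm39, chr15:74586682-74920686, which holds 18 protein-coding genes, 11 of them in the table. Read from its start, the genes with higher levels in mutants came in 2 groups. Psca was at -0.12 and the neighbouring Them6, a gene of another family, at -0.26 (SE 0.05, adjusted p = 0.00118, limma). Then came Lynx1 at 2.00 and Ly6d at 6.16. Ly6k, which starts 33125 bases beyond Ly6d, was at -0.24, followed by Gml at 0.01, Gml2 at -0.01 and Ly6m at -0.13. Beyond a gap of 57989 bases after Ly6m lay Ly6e at 3.42, then Ly6a at 1.94 and Ly6c1 at 1.07. All 4 somatic members, but only 1 of the germ-cell members, thus lay in this stretch, and 6 of its 11 measured genes were not higher in mutants. Over all tested genes, 36.3% were called higher, and Ly6d, among the raised genes here, was chosen for its rise. Whether raised genes gather in this stretch was not tested. Gml and Gml2 overlap by 449 bases on opposite strands, and since the strand setting of the counting is not given in the sources used here, their reads cannot be told apart there.

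**Figure D3:**
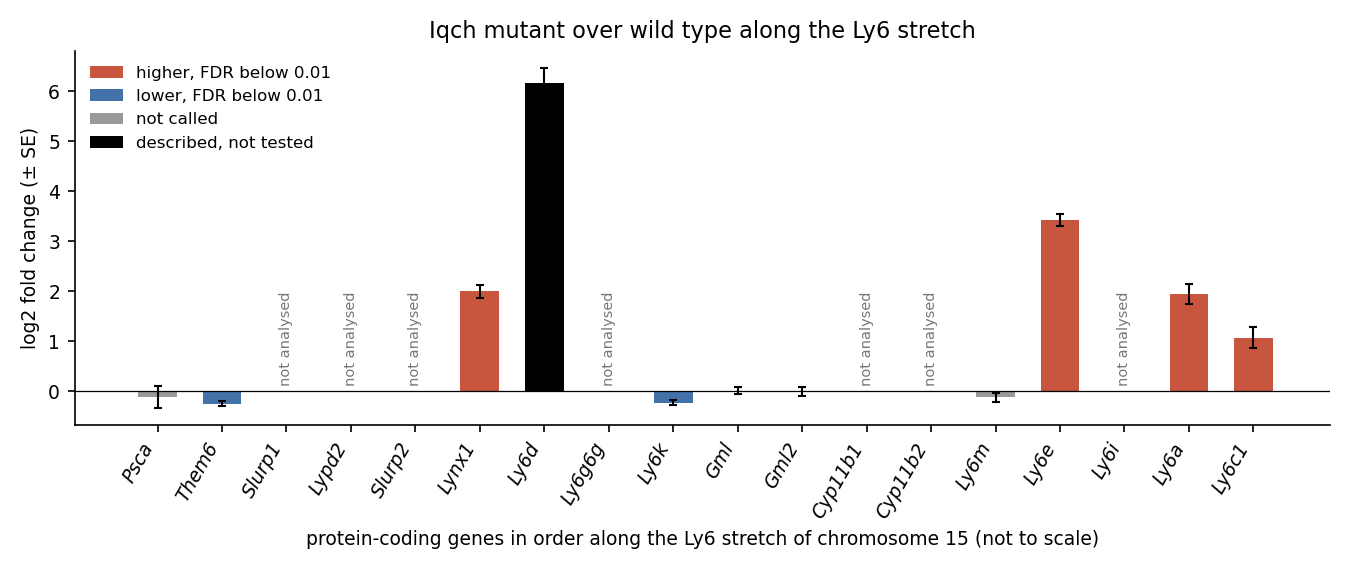
Log2 fold change (bars ± SE) of the genes of the Ly6 stretch of chromosome 15 in their order along it, with equal spacing, red where called higher, blue where called lower, grey where not called and black for Ly6d, which was not tested. A first group of raised genes, Lynx1 and Ly6d, and a second, Ly6e, Ly6a and Ly6c1, are set apart by Ly6k, Gml, Gml2 and Ly6m, which lie between -0.24 and 0.01.

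On chromosome 7, 6 genes of the family lay between 24043489 and 24569366 (Lypd5, Pinlyp, Tex101, Lypd10, Lypd11 and Lypd4), with Spaca4 further along at chr7:45374531-45375237. Of these, only Lypd5 was called higher. Lypd4 and Spaca4 were called lower, and Tex101, Lypd10, Lypd11 and Pinlyp were not called. The Spaca4 call was lost when some single libraries were left out. Beside 36.3% of all tested genes called higher and 14.2% lower, these few calls are not read as a trait of chromosome 7.

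Close copies did not all keep the same ratio to one another in these libraries. Over the aligned protein chains, 3 pairs of the family were more than 60% identical: Gml and Gml2 (79.0%), Cd59a and Cd59b (72.0%), and Ly6a and Ly6c1 (68.7%). The ratio of a pair within a library is free of transcript length and scaling when compared between groups. Ly6a over Ly6c1 was 1.10, 1.09, 1.11 and 1.00 in wild types 1 to 4 and 2.08, 2.22 and 1.68 in mutants 1, 2 and 4, so the pair had about equal CPM in every wild type and unequal CPM in every mutant. The log2 difference of this ratio was 0.88 (SE 0.13). Cd59a over Cd59b was 2.06, 1.77, 2.19 and 1.62 in wild types and 4.34, 3.37 and 3.15 in mutants, a log2 difference of 0.92 (SE 0.17). For both pairs a two-sided exact permutation test of the group labels gave p = 0.029, the smallest it can give, and 0.057 after adjustment over 4 ratios. Gml over Gml2 was 1.45 to 1.72 in wild types and 1.56 to 1.58 in mutants (exact permutation p = 0.91, adjusted 0.91). The relation between TEX101 and LY6K on germ cells made Ly6k over Tex101 the fourth ratio. It was 0.362, 0.458, 0.418 and 0.426 in wild types and 0.329, 0.328 and 0.325 in mutants. All 3 mutants were below every wild type, with a log2 difference of -0.34 (SE 0.07, exact permutation p = 0.057, adjusted 0.076).

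**Figure D4:**
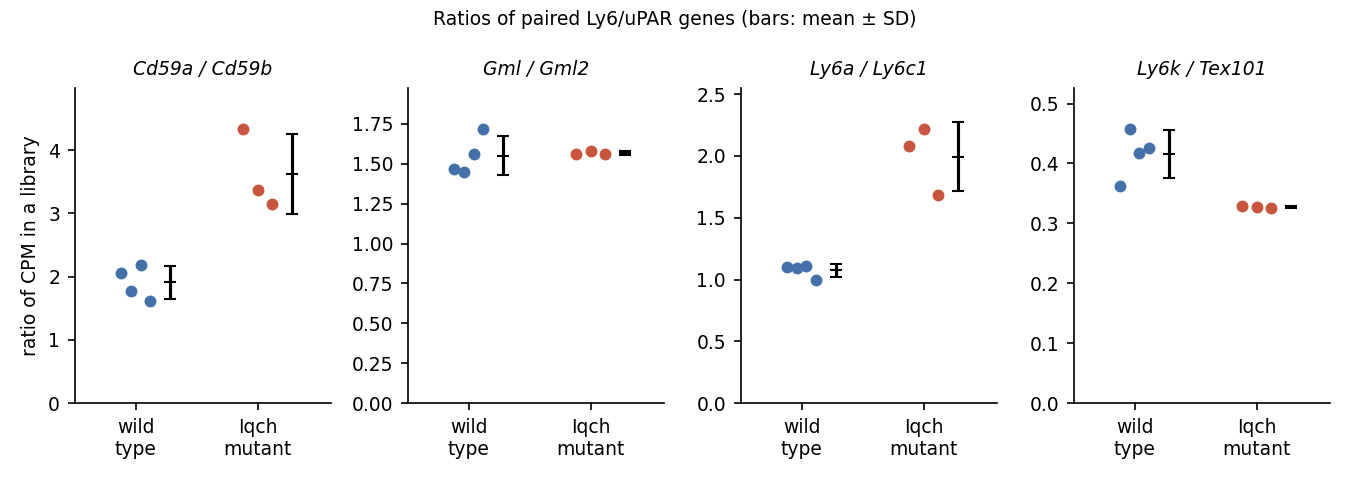
Ratio of CPM of 2 genes within each library, 1 point per library, wild types in blue and mutants in red, with mean ± SD beside the points and each axis starting at 0. Cd59a over Cd59b and Ly6a over Ly6c1 were higher in all 3 mutants, at means of 3.62 and 1.99 against 1.91 and 1.07, Ly6k over Tex101 was lower in all 3, and Gml over Gml2 was at 1.57 and 1.55.

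Since most of these proteins carry a GPI anchor, genes of its synthesis were counted next. Of 25 tested genes of anchor assembly, 9 were called higher, a share near the 36.3% of all tested genes, and the other 16 in neither direction, with a median of 0.20. With size factors 6 were called higher and 3 lower, with a median of 0.07, so the direction of this group depended on the scaling. The largest rises were of Dpm3, a subunit of the enzyme that makes dolichol phosphate mannose (1.10, SE 0.12, adjusted p = 7.8e-06), Pigx, a subunit of a GPI mannosyltransferase (0.79, SE 0.12, adjusted p = 1.1e-04), and Pigb, another mannosyltransferase (0.64, SE 0.13, adjusted p = 8.2e-04), all by limma. Of 9 genes that remodel or release the finished anchor, 5 were called higher, 1 lower and 3 neither, with a median of 0.32. Over all tested genes, 36.3% were called higher and 14.2% lower. With size factors 5 of the 9 were called higher and 2 lower, with a median of 0.18, beside 27.0% and 25.1% of all tested genes. Pgap3, which acts in exchanging the lipid of the anchor, rose by 1.12 on the log2 scale, Gpld1, a phospholipase that cuts it, by 0.78, and Mppe1, which trims its glycan, by 0.75. The gene called lower without size factors was Ace (-0.29, SE 0.05, adjusted p = 0.00019, limma), named here after its value was seen. Its testis form has been described to release GPI-anchored proteins.

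Partners of the germ-cell members, meaning the ADAM proteins of the sperm surface and the chaperones and proteases that act on them, mostly fell. Lypd4 and Ly6k fell too, whereas Tex101 was not called. Of 15 tested, 11 were called lower, 1 higher and 3 neither, with a median of -0.25, against 14.2% of all tested genes called lower. With size factors 14 were lower and 1 higher, against 25.1% of all tested genes called lower. A fall was not particular to these partners, since 10 of 12 spermatid markers were also called lower, with a median of -0.32. Adam1a, a partner of ADAM2, fell from 139 to 154 CPM in wild types to 108 to 119 CPM in mutants (-0.42, SE 0.05, adjusted p = 1.6e-05, limma). Prss55, a serine protease of germ cells, fell from 126 to 164 CPM to 105 to 116 CPM (-0.39, SE 0.07, adjusted p = 4.5e-04, limma). The exception was Tpst2, a tyrosine sulphotransferase of wide expression, which rose from 6.44 to 8.16 CPM to 11.0 to 14.2 CPM (0.85, SE 0.11, adjusted p = 3.2e-05, limma).

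Genes of the interferon response were counted because Ly6e and Ly6a are known to respond to it. Of 24 listed, 16 were tested, and Isg15, Ifit1, Ifit2, Ifit3, Ifi44, Oas1a, Usp18 and Rsad2, which are among the genes most used to follow the response, were not analysed here. Of the 16, 5 (Psmb8, Tap1, Gbp2, Gbp3 and Irf7) reached the minimum only in mutants, so that a rise was all they could show. Of the other 11, 9 were called higher and 2 in neither direction, with a median of 1.16, beside the 35.1% called higher among all genes that reached the minimum in both groups. The 3 largest changes of the list were all of genes that passed only through mutants and are given as values. Psmb8, a subunit of the immunoproteasome, was at 0.791 to 1.94 CPM in wild types and 3.72 to 4.80 CPM in mutants (log2 fold change 1.85, SE 0.26). Tap1, a peptide transporter for antigen presentation, was at 1.43 to 1.94 CPM and 3.53 to 7.45 CPM (1.70, SE 0.22). Gbp3, a guanylate-binding protein, was at 0.883 to 2.32 CPM and 3.50 to 4.34 CPM (1.46, SE 0.25). The 2 that were not called were Stat2 at 0.24 and Mx1 at -0.46, a classical antiviral gene whose value had the opposite sign to most of the list.

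Markers of testis cell types also moved, and their part in the rise or fall of the members was not tested. The summed level of 9 macrophage and monocyte markers went from 89.7 to 99.9 CPM in wild types to 266 to 306 CPM in mutants, with 7 called higher of the 8 that reached the minimum in both groups, among them Lyz2, a lysozyme (2.34), and Mrc1, the mannose receptor (0.76). The remaining one, Cd163, reached it only in mutants. Among all genes that reached the minimum in both groups, 35.1% were called higher. Among lymphocyte markers, Ptprc, which is present on all leukocytes, was at 1.00 to 2.03 CPM in wild types and 3.59 to 6.52 CPM in mutants and reached the minimum only in mutants, and Cd3e and Ms4a1 were not analysed here. Of 9 endothelial markers 3 were called higher, no larger a share than the 36.3% of all tested genes, namely Kdr (1.81), Cdh5 (1.05) and Cldn5 (0.80), while Vwf was at -0.21 and not called, at sums of 50.9 to 56.5 and 69.0 to 72.3 CPM. The 1 neutrophil marker tested, Mpo, was at 0.70 and not called, with 1.05 to 2.72 CPM in wild types and 3.25 to 3.77 CPM in mutants. Of 2 epithelial markers of the rete testis and other ducts, Epcam (0.01) and Krt8 (0.14) were not called, at 40.6 to 43.4 and 41.8 to 45.2 CPM. Of 2 epididymal markers, Spink8 was called lower (-1.09) and Rnase10, which reached the minimum only in mutants, was at 0.90, with sums of 5.62 to 8.30 and 5.07 to 6.90 CPM.

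Markers of other resident cells of the testis and of germ cells were counted in the same way. Of all tested genes, 36.3% were called higher and 14.2% lower, or 27.0% and 25.1% with size factors. Of 8 Leydig cell markers 7 were called higher, at sums of 1057 to 1268 CPM in wild types and 4425 to 4581 CPM in mutants, with Insl3 at 2.75 and Cyp17a1 at 0.74. All 9 Sertoli cell markers were called higher, 7 with size factors, at 1012 to 1092 and 2105 to 2248 CPM, with Clu at 1.09 and Cldn11 at 0.94. Of 6 peritubular myoid markers 2 were called higher, Des (0.61) and Myl9 (0.60), and Actg2 lower (-0.44), counts near the shares of all tested genes. The myoid sums were 390.1 to 464 and 349.6 to 395 CPM. Among germ cells, 5 of 8 spermatogonial markers were called higher, with a median of 0.31. With size factors 1 was called higher, below the share of all tested genes, with a median of 0.17. The spermatogonial sums were 146 to 158 and 203 to 231 CPM, with Kit at 1.50 and Uchl1 at 0.29. Much of that rise was Kit, at means of 21.7 CPM in wild types and 62.2 CPM in mutants. Of 10 spermatocyte markers, a list that includes Tex101 and Ly6k, 3 were called lower and 1 higher, at 2114 to 2220 and 1907 to 1940 CPM, with Pgk2 called lower (-0.33) and Piwil1 at -0.06 and not called. Of 12 spermatid markers, which include Acrv1, 10 were called lower and the other 2 in neither direction, at 22538 to 23860 and 14618 to 16665 CPM, with Prm2 at -0.60 and Prm1 at -0.66. The protamine genes, Insl3 and Clu were named because they are among the 2 most abundant genes of their lists, so their level is no check of the tissue.

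**Figure D5:**
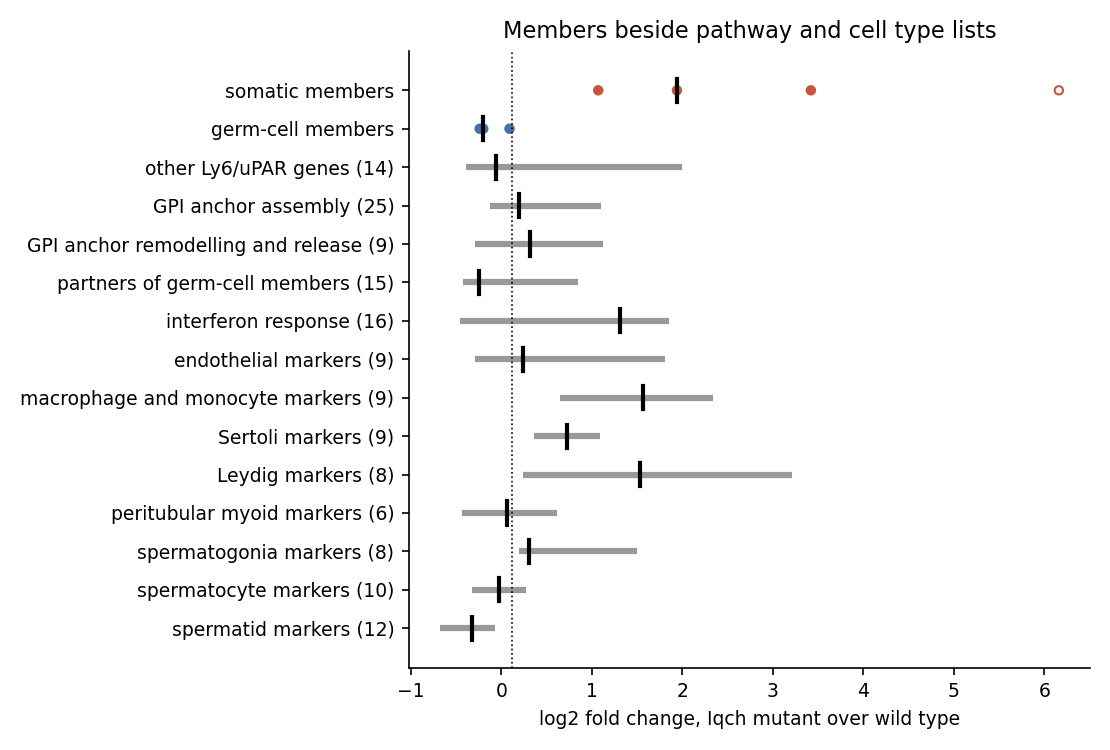
Log2 fold changes of the 4 somatic members (red points, open for Ly6d, which was chosen for its rise and is left out of the median) and the 4 germ-cell members (blue points) above those of other lists of genes, each shown as a grey line from its lowest to its highest gene with the number tested in brackets, and with black ticks at medians. The 3 somatic members other than Ly6d have a median of 1.94. Beside it stand 1.57 for macrophage and monocyte, 1.53 for Leydig, 0.72 for Sertoli, 0.24 for endothelial and 0.06 for peritubular myoid markers. The germ-cell members have a median of -0.20. The lines of the interferon and macrophage lists include genes that were tested only through their level in mutants.

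The promoter of Ly6d, from 250 bases before to 50 bases after its annotated start (chr15:74635548-74635847, minus strand, GRCm39), is shown because Ly6d had the largest change of the family. The line gives it 5′ to 3′, with capitals for a match to GAAANNGAA, the pattern used here for sites of interferon regulatory factors.
Ly6d promoter: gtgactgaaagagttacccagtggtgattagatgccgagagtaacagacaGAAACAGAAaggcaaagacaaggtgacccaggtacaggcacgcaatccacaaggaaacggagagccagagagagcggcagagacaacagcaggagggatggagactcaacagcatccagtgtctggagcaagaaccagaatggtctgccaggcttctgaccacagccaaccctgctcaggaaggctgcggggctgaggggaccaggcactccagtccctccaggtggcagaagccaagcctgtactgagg
The match lies 200 to 192 bases before the start. On either strand, 8.78% of 21770 protein-coding promoters of the same length hold this pattern, and of the 22 family genes Cd59a and Cd59b also hold it, 1 of which rose. The pattern TTCNNNGAA for STAT factors, held by 8.81% of promoters, was found in Ly6k and Lypd10. The cAMP response element TGACGTCA, held by 2.44%, was found in none of the 22, and its first 5 bases TGACG, held by 22.6%, in Gml and Gml2. Ly6e, Ly6a and Ly6c1 held none of these letters in this window. A match is a description of the sequence only.

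Across the 7 libraries, the 3 genes whose pattern was nearest to that of Ly6d were found from the root mean square difference of log2(CPM + 0.1) after each gene was centred on its own mean. Serpina3n, an acute-phase serine protease inhibitor, was nearest at 0.82, with 2.15, 1.46, 1.73 and 1.73 CPM in wild types 1 to 4 and 50.0 to 66.8 CPM in mutants. Fetub, a fetuin, was next at 0.88, with 0.718, 2.36, 0.730 and 0.852 CPM in wild types 1 to 4 and 22.3, 23.8 and 26.8 CPM in mutants. Wnt4, a signalling ligand, followed at 1.10, with 0.419, 0.0874, 0.365 and 0.240 CPM in wild types and 7.79 to 11.9 CPM in mutants. Wild type 2 was the highest wild type for Ly6d and Fetub and the lowest for Serpina3n and Wnt4. Its Wnt4 value, 0.0874 CPM, is 3 reads, so the order of wild types for Wnt4 rests on very few counts. These distances follow from a large rise in all 3 mutants and describe these 7 libraries only.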

How the data were processed

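RNA-seq of whole testes was analysed, with groups taken from the sample titles (4 wild-type and 3 Iqch mutant mice). Reads were trimmed (Trimmomatic), aligned to GRCm39 (Subread) and assigned to genes (featureCounts) by the authors, who kept genes above a minimum of reads and deposited CPM that sum to 1000000 in each library. All values were whole multiples of 1 step (tolerance 0.01), taken as 1 read, or 0.0266 to 0.0312 CPM, which is the depth behind every value. The annotation release is not given in the sources used here.

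Here, log2(CPM + 0.1) was fitted with limma 3.58.1 (R 4.3.3, eBayes with a mean trend) and no covariate, for the 17126 genes that reached 2.2 CPM in 2 libraries of either group. A fold change on this scale understates the change of low genes. P-values measure the spread between these mice, and counting error is only part of it. The method was also run on simulated counts in which few genes changed. Many genes were called in these data, so that run is no check of the small calls. Ratios were tested with a two-sided exact permutation test on the mean log2 ratio.

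Symbols, coordinates and transcripts came from GENCODE M39 on GRCm39, in which 17045 of 17127 genes were found. Sequences were read from that genome, with Biopython 1.88 used for alignment. Each transcript was the canonical or principal one.

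The members and all gene lists were chosen with earlier results of these data known. Named genes were all members, all other family genes in the table, Iqch, the 3 called genes of each pathway list with the largest change, the 2 most abundant genes of each marker list and the 3 genes nearest to Ly6d, except that 1 marker gene is not reported here. Ace, Them6, Stat2, Mx1, Gbp2, Irf7, Cd163, Cdh5, Cldn5 and Des were named after their values were seen. Alternatives were another pseudocount (1 or 0.01), no minimum, a minimum of 5 CPM, size factors, a replicate block (without wild type 3), and each library left out in turn.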

Additional observations from a re-analysis of the deposited data

Results flagged for a closer look

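Among 23 genes checked (the 22 family genes and Iqch), 1 had a library far from the others of its group. Ly6d in wild type 2 was at 0.466 CPM, against 0.107, 0.122 and 0.150 CPM in the other wild-type libraries. The gap to the nearest of them was 0.88 of the whole range of the group. Chance flags about 1 in 20 groups of this size. The value rests on 16 reads against 4, 4 and 5. Without that library the log2 fold change of Ly6d was 6.49 in place of 6.16.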

How the results depend on the processing

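Of the further family genes, 5 in place of 3 were called lower with size factors, and 1 to 3 when a library was left out, the lowest without mutant 2. The median of the somatic members, Ly6d included, was 2.68, and 3.42 with a minimum of 5 CPM, which leaves fewer of them tested, and that of the germ-cell members was -0.34 with size factors. The sign changed with size factors for Tex101 (-0.04), Lypd10 (-0.13) and Gml (-0.12), none of them called. With a library left out, the values ran from -0.03 to 0.03 for Lypd10, -0.03 to 0.07 for Gml and -0.10 to 0.07 for Gml2, on both sides of 0.

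Samples with the same replicate number did not deviate together (correlations 0.0261, 0.0094 and -0.0977). The labels do not say whether equal numbers share anything, and 3 correlations from so few libraries cannot show it. The fit with the replicate number as a replicate block left out wild type 3, which has no mutant of its number among those compared. In it, 7705 genes were called in place of 8640. The members stayed at 3 higher and 3 lower, and 4 further family genes were lower. Cd59b was added at -0.45 (adjusted p = 0.00465, limma), while Lypd10 was at -0.02. Leaving out wild type 3 without a block gave 8275 called genes and the same -0.45 for Cd59b (adjusted p = 0.0294, limma). Tests on counts with edgeR and DESeq2 had been planned and were not run, and the reads worked out from the CPM steps were used to state depth only. The low level of Ly6d in wild types, 4 to 16 reads, leaves its fold change uncertain between the pseudocounts.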
